A study of Drosophila melanogaster with 12 samples.

Results

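The odorant-binding protein genes Obp56d, Obp19d, Obp19c, Obp59a and Obp99c were followed in heads of fruit flies (*Drosophila melanogaster*) fed a seizure-provoking drug together with an antiepileptic one. They were chosen by name, with earlier results of these data known, from 20 odorant-binding protein genes on the array, lush included. Genes were matched by their single symbol in the array annotation, updated through the Entrez identifier. These 5 of the 6793 genes with a single symbol were carried by 10 of 13824 probes. Odorant-binding proteins are small secreted proteins that support cells release into the fluid bathing the dendrites of smell and taste neurons, where they bind mostly oily odour and taste molecules. In the head their RNA is known from the antennae, the palps and the mouthparts, and some members are also made outside the sense organs, for example in glia or fat tissue. A head sample mixes sense organs, eye, brain and fat.

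Head RNA of treated males was compared on 2-colour cDNA arrays with head RNA of males on normal food, 4 arrays at each of 3 times. The drugs were pentylenetetrazole (PTZ, 8 mg/ml of food), which blocks inhibitory chloride channels, and levetiracetam (LEV, 5 mg/ml), which binds a synaptic vesicle protein in mammals. One group ate PTZ and LEV for 12 h and another ate both for 2 days. The third ate both for 4 days and then PTZ alone for 3 days, to day 7, according to the treatment protocols, although one line of the design text names LEV for the last stage. Each control group ate normal food for the same time. All flies were unmated Oregon-R wild-type males kept 30 to a vial, and heads were pooled from several vials. Their labelled age is 3 to 4 days, to which the growth protocol adds another 10 to 11 days. Each array paired 1 treated pool with a control pool from the same parallel set, and the design text counts the 4 sets of a time as biological replicates. Replicate numbers 3 and 4 at 12 h and 7 d follow deposit order and only name an array.

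The values are log2 ratios of the dyes, and treated heads were labelled with Cy5 on replicates 1 and 2 and with Cy3 on replicates 3 and 4. The labels do not state whether the deposited ratios of replicates 3 and 4 are Cy5 over Cy3 or already treated over control. The means of the members at each time are therefore given in 2 readings. In the turned reading the sign of replicates 3 and 4 is flipped, and in the as-deposited reading it is kept, so that a value of these arrays printed in 1 reading has the opposite sign in the other. Replicates 1 and 2 read the same way in both, if their ratios are Cy5 over Cy3, with a positive value meaning more signal in treated heads. All values are relative to the median of their own array. Arrays differed widely in how much they measured, from 1394 to 14042 of 27648 spots, and replicate 4 at 7 d alone measured 50.8% of them. For replicate 1 of 7 d and replicate 4 of 2 d the source names give no treated channel, and their treatment protocols were followed instead. Among markers of head tissue, a value was found for 6 of the 6 photoreceptor genes on the array, 3 of 6 for head fat body, 2 of 3 for glia, 2 of 3 for hemocytes and 1 of 2 for muscle. The single neuron marker on the array, nSyb, and the single antennal support marker, lush, had a value as well. Of all 6793 genes, 69.3% had a value on 1 array or more. The 2 hemocyte markers had theirs on replicate 4 of 7 d alone. Levels cannot be read from a ratio, and in whole heads fewer cells of a type and less RNA per cell cannot be told apart.

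No member passed the test at any time, in either reading. In limma with Benjamini-Hochberg adjustment over all probes, 0 of the 4 members tested at 12 h were called, against 0 of 1283 probes (0%). At 2 d 0 of 1 were called, against 0 of 1001 probes (0%), and at 7 d 0 of 1, against 0 of 865 (0%). At an unadjusted p under 0.05, 0 members were found in the turned reading, beside 4.52% of probes at 12 h, 1.6% at 2 d and 3.93% at 7 d. In the as-deposited reading 1 member probe had an unadjusted p under 0.05, the second probe of Obp59a at 12 h, beside 8.03% of probes at 12 h, 13.3% at 2 d and 7.98% at 7 d. Over the 4 members at 12 h, 3 means lay above 0 in the turned reading (Obp56d, Obp59a and Obp99c), beside 45.1% of all probes. The median of the 4 was 0.13, against -0.049 over all probes. In the as-deposited reading 3 of 4 lay above 0, beside 54.5% of all probes, but with Obp19c in place of Obp59a. The median of the 4 was 0.13 there, against 0.046 over all probes. Obp59a was counted by its first probe, and its second probe had the opposite sign in both readings. The median size of the means, sign apart, was 0.25 for the members and 0.28 for all probes in the turned reading, and 0.38 and 0.30 as deposited.

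The arrays that measured the members differed between times. All 5 members had a value on at least 1 array at 12 h, 4 did at 7 d and only Obp19d did at 2 d. The arrays of 12 h measured 1145 to 3798 probes each, those of 2 d 802 to 1070 and those of 7 d 781 to 7102. Obp19c had its 7 d value from replicate 4 alone, the array with 7102. The share of all genes with a value at each time was not counted, so the drop at 2 d is not particular to these genes as far as shown. Obp19d was measured on 8 of 12 arrays and Obp56d on 7, while Obp19c had 5, Obp99c 4 and Obp59a 3. Of all 6793 genes, 2.0% were measured on 8 arrays or more and 8.05% on 4 or more. Every member reached 3 arrays of a time, against 1 of the 15 other odorant-binding protein genes on the array. Since the members were chosen with earlier results known, their coverage says nothing about the family. The design text describes filters on saturated pixels, flags, spot uniformity and signal over background, and a missing value gives no level.

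**Figure D1:**
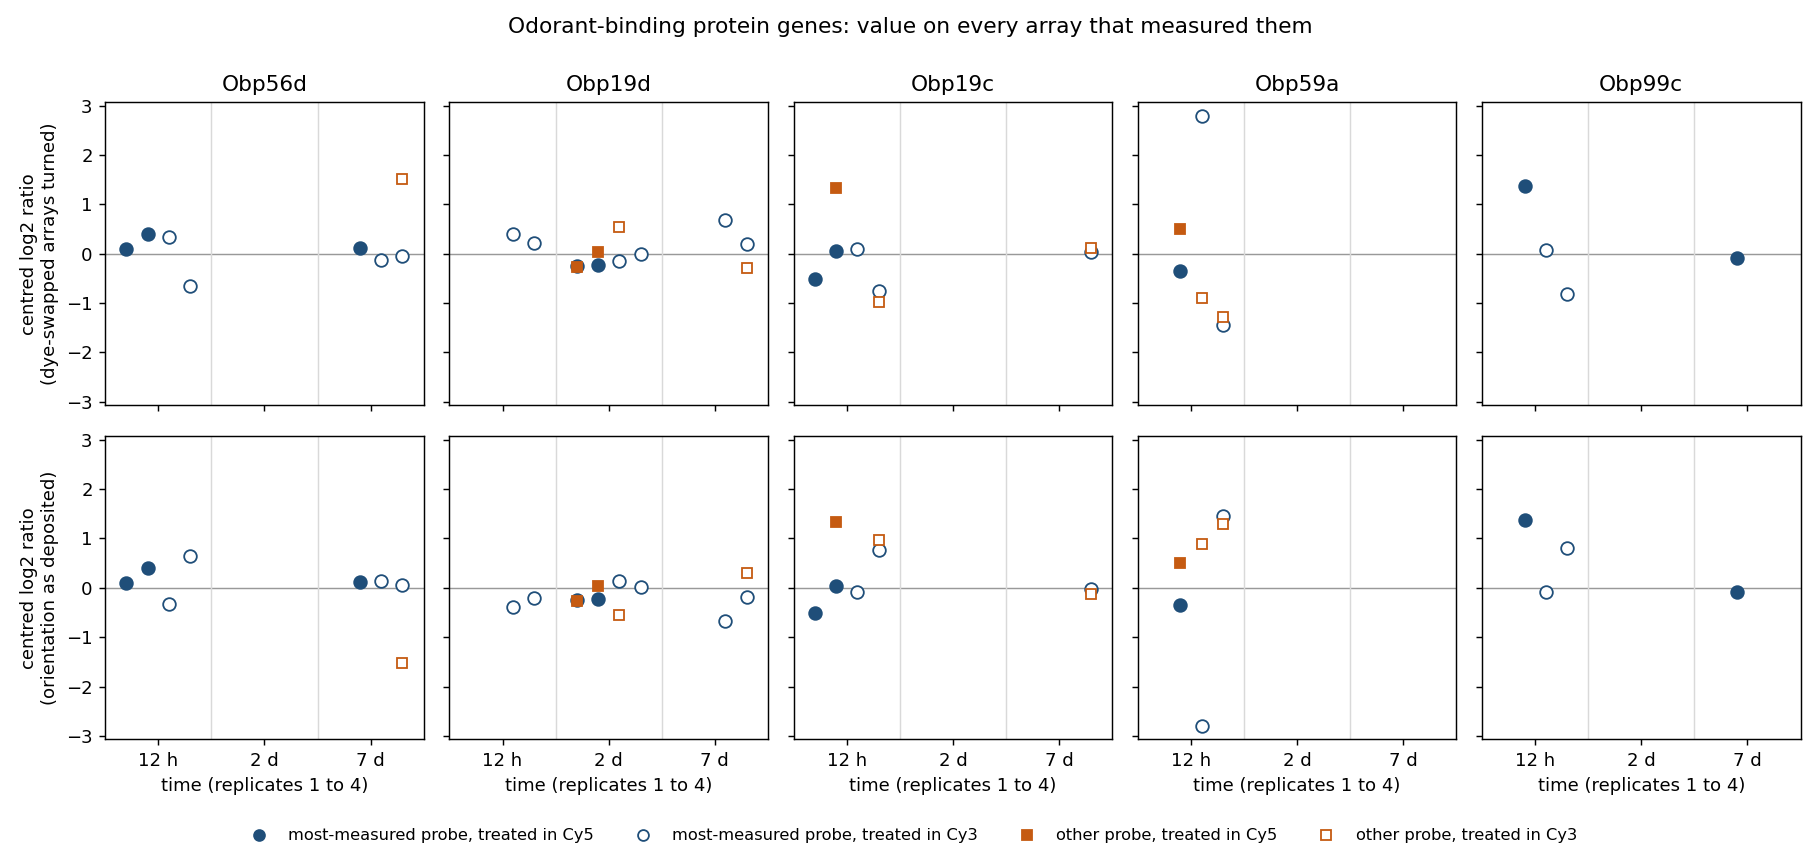
Centred log2 ratio of every member probe on each array that measured it, with replicates 1 to 4 from left to right within a time, dye-swapped arrays turned in the upper row and as deposited in the lower row. Filled symbols are arrays with the treated sample in Cy5 and open symbols those with it in Cy3, circles are the most-measured probe of a gene and squares its other probe. For Obp59a, whose probes were measured on equally many arrays, circles are the first probe. Obp59a spreads most, from -1.45 to 2.79 in the turned reading, and Obp19d is the only member with values at 2 d.

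Obp19d, which the RefSeq table also lists as PBPRP-2, encodes an odorant-binding protein known from the antenna and taste organs. Its most-measured probe stood at -0.24 and -0.23 on the Cy5-treated arrays of 2 d. On its dye-swapped arrays it stood at -0.15 and -0.0073 in the turned reading, and at 0.15 and 0.0073 as deposited. All 4 arrays of 2 d thus lay below 0 when turned, and the dyes lay on opposite sides of 0 as deposited. Among the 740 probes measured on all 4 arrays of 2 d, 34 (4.59%) had 1 sign throughout in the turned reading, and 217 (29.3%) did as deposited. The 2 d mean of Obp19d was -0.16 ± 0.11 (SD, n = 4 arrays) in the turned reading, with a 95% interval from -0.69 to 0.37 in limma and an adjusted p of 0.995. As deposited it was -0.081 ± 0.19, with an adjusted p of 0.826 in limma. The spread was small in the turned reading, where 5 of the 740 probes, Obp19d included, had an SD as low and the median SD was 0.80. As deposited it was less unusual, with 51 of the 740 probes (6.89%) as low and a median SD of 0.62. The interval is wider than the arrays' own spread because limma draws each probe's variance towards that of all probes.

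At the other times Obp19d was measured on dye-swapped arrays only. In the turned reading its most-measured probe stood at 0.40 and 0.21 at 12 h and at 0.68 and 0.19 at 7 d, and as deposited these values were -0.40, -0.21, -0.68 and -0.19. Among dye-swapped arrays alone, those of 2 d lay on the other side of 0 from those of 12 h and 7 d. Turning flips these arrays together, so the reading cannot change this, and replicate 4 of 2 d stood at only 0.0073 as deposited. The share of all probes with this pattern was not counted. This comparison over 2 arrays per time was noticed in the data and holds the dye constant. The fit with a dye term below tests it, because Obp19d had both dyes at 2 d only. In a fit of all arrays over the 840 probes with at least 2 arrays at every time, 2 d minus 12 h was -0.46 for Obp19d (2 d mean -0.16, 12 h mean 0.30), with an interval from -1.47 to 0.56. The adjusted p was 0.999 in limma, against 0 of 840 probes called (0%) and 3.81% at an unadjusted p under 0.05. With a dye term in the fit this difference was -0.38, as deposited it was 0.22 and without centring it was -1.19, all settings added after the data were seen. For 7 d minus 2 d the difference was 0.59, with an interval from -0.42 to 1.61 and an adjusted p of 0.892 in limma, against 0% called and 3.1% at an unadjusted p under 0.05, and as deposited it was -0.35. The dye term gave 0.51, with an adjusted p of 0.861 in limma. For 7 d minus 12 h it was 0.13 turned, with an adjusted p of 0.979 in limma, and -0.13 as deposited, against 0% called and 4.29% at an unadjusted p under 0.05.

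The second probe of Obp19d did not follow the first. It stood at -0.27 and 0.043 on the Cy5-treated arrays of 2 d, and at 0.54 turned or -0.54 as deposited on replicate 3. On that replicate the first probe lay on the other side of 0. Its 2 d mean was 0.10 ± 0.41 (SD, n = 3 arrays) turned and -0.26 ± 0.29 as deposited, with adjusted p of 0.995 and 0.614 in limma. On replicate 4 of 7 d it stood at 0.30 as deposited, where the first probe stood at -0.19. It kept 1 sign over its 3 arrays of 2 d in neither reading, beside 19.9% of probes on 3 arrays turned and 37.5% as deposited.

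Among the other odorant-binding protein genes on the array, Obp44a, known from glia of the nervous system, was the only one with enough arrays for a test. It stood at -0.43 and -0.50 on the Cy5-treated arrays of 2 d, and at -0.25 and -0.10 turned on the dye-swapped ones. On the 3 other arrays that measured it, all dye-swapped, its turned values were 0.16 and 0.23 at 12 h and 0.49 at 7 d. Obp44a lay on the same side of 0 as the most-measured probe of Obp19d on all 7 arrays they share, which the choice of reading cannot change. The share of genes that do so was not counted. The second probe of Obp19d lay on the other side of 0 from Obp44a on replicates 2 and 3 of 2 d and replicate 4 of 7 d. On replicate 1 of 2 d it lay on the same side. Its 2 d mean was -0.32 ± 0.18 (SD, n = 4 arrays) turned, with an adjusted p of 0.995 in limma, and -0.14 ± 0.37 as deposited, with an adjusted p of 0.760. By mean absolute difference over shared arrays, the gene closest to Obp19d was Apt1, which encodes an acyl-protein thioesterase, at 0.141 over 7 arrays, followed by the chitinase gene Cht6 at 0.163 over 7. Obp44a came at rank 3 of 159 genes, at 0.172, where the median gene stood at 0.395. This measure is the same in both readings, favours genes near the array median, and carries no test.

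**Figure D2:**
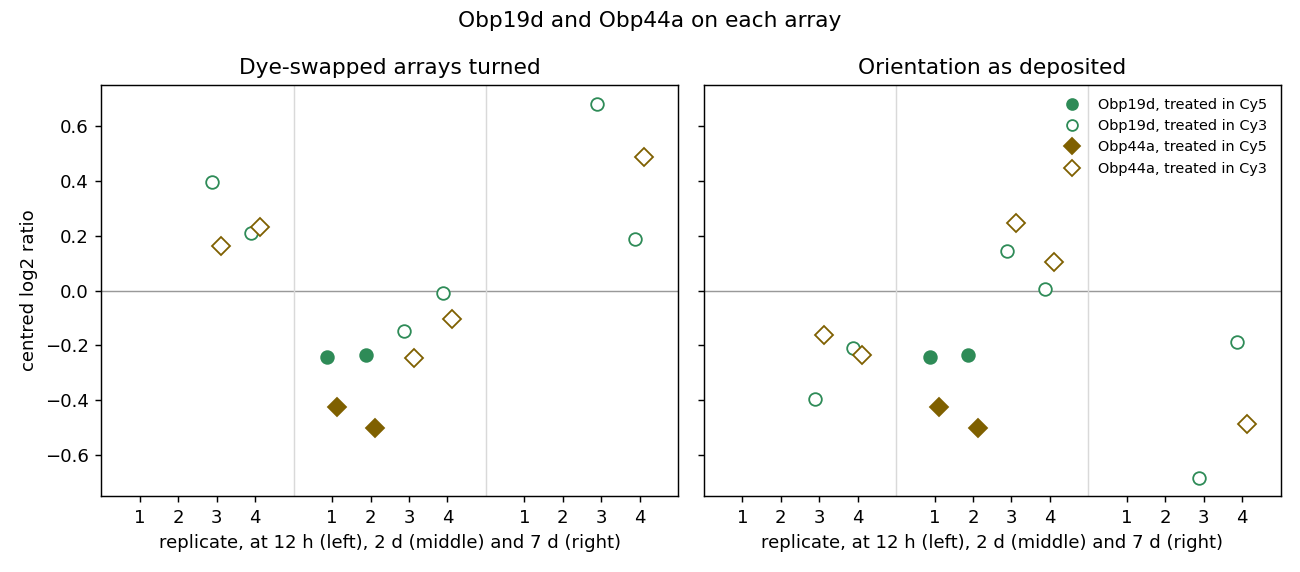
Centred log2 ratio of the most-measured probe of Obp19d (circles) and of Obp44a (diamonds) on each array that measured them, with dye-swapped arrays turned on the left and as deposited on the right. Filled symbols have the treated sample in Cy5 and open symbols in Cy3, and on the left all 2 d values lie below 0 while all 12 h and 7 d values, from dye-swapped arrays only, lie above it.

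Obp56d, known from both smell and taste organs, was measured on all 4 arrays of 12 h and on 3 of 7 d by its most-measured probe. At 12 h it stood at 0.10 and 0.39 on the Cy5-treated arrays, and at 0.34 and -0.65 turned, or -0.34 and 0.65 as deposited, on the dye-swapped ones. The dye-swapped arrays lay on opposite sides of 0 in either reading, so neither gives 1 sign throughout. The 12 h mean was 0.045 ± 0.48 (SD, n = 4 arrays) turned, with an interval from -0.64 to 0.73, and 0.20 ± 0.42 as deposited, with adjusted p of 0.978 and 0.848 in limma. At 7 d it stood at 0.12 on replicate 2, the Cy5-treated array, and at -0.14 and -0.056 turned on the dye-swapped ones. As deposited the 3 values of 7 d were 0.12, 0.14 and 0.056, all above 0. Of the 262 probes on 3 arrays of 7 d, 37% kept 1 sign as deposited and 24.1% did turned.

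The 7 d mean of Obp56d was -0.023 ± 0.13 (SD, n = 3 arrays) turned and 0.11 ± 0.043 as deposited, with adjusted p of 0.990 and 0.881 in limma. Of the 262 probes on 3 arrays, 3 had an SD as low as deposited, Obp56d included, against a median SD of 0.53. In the turned reading 10 of the 262 (3.82%) did, against a median SD of 0.58. Between times, 7 d minus 12 h was -0.068 in the turned reading, with an interval from -1.18 to 1.04 and an adjusted p of 0.991 in limma. As deposited it was -0.096, and turned without centring it was -0.85. That fit, added after the data were seen, covered the 736 probes on at least 3 arrays of both times, of which 0 were called (0%) and 5.3% had an unadjusted p under 0.05. The genes closest to Obp56d over 6 shared arrays were Prosbeta3, a proteasome subunit gene, at a mean absolute difference of 0.152, and Oda, the ornithine decarboxylase antizyme gene, at 0.169. The median of the 144 genes compared was 0.471.

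A second probe of Obp56d was measured on 1 array, replicate 4 of 7 d, and stood at -1.52 as deposited or 1.52 turned. The most-measured probe stood at 0.056 as deposited on that same array. Of the probes on this array, 1.68% lay below the second probe and 53.7% below the most-measured one. A further Obp56d probe had no value on any array.

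Obp19c lies next to Obp19d in the gene order of the RefSeq table, and the same table places Obp19b on its other side. Its most-measured probe stood at -0.51 and 0.045 on the Cy5-treated arrays of 12 h. On the dye-swapped ones it stood at 0.091 and -0.76 turned, or -0.091 and 0.76 as deposited. Both pairs of arrays lay on opposite sides of 0, and the 12 h mean was -0.28 ± 0.42 (SD, n = 4 arrays) turned, with an interval from -0.93 to 0.36. As deposited the mean was 0.050 ± 0.53, and the adjusted p was 0.870 turned and 0.968 as deposited in limma. Obp19c stood at -0.033 on the single 7 d array that measured it, as deposited. Its second probe stood at 1.33 on replicate 2 of 12 h and at 0.98 as deposited on replicate 4, each from 1 of the 2 spots. On both arrays the second probe was higher as deposited than the first, at 0.045 and 0.76. On replicate 4 of 7 d it stood at -0.12.

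Obp59a, known from the sacculus of the antenna and needed there for sensing humidity, was measured at 12 h only, by both of its probes on the same 3 arrays. The first probe stood at -0.34 on the Cy5-treated array, replicate 2, and at -2.79 and 1.45 as deposited on replicates 3 and 4, with 1 measured spot on replicates 2 and 4. The second stood at 0.50 on replicate 2, and at 0.89 and 1.29 as deposited on replicates 3 and 4. Both probes thus lay high on replicate 4 as deposited, where 97.2% and 96.2% of probes lay below them, and they lay on opposite sides of 0 on the other arrays. The second probe was above 0 on all 3 arrays as deposited and on both sides of it turned. Its as-deposited mean was 0.89 ± 0.39 (SD, n = 3 arrays), with an unadjusted p of 0.0350 and an adjusted p of 0.592 in limma. Turned, the mean was -0.56 ± 0.94 with an adjusted p of 0.867 in limma. The first probe had means of 0.33 ± 2.20 turned and -0.56 ± 2.13 as deposited (SD, n = 3 arrays), with adjusted p of 0.967 and 0.878 in limma.

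The adjacent spots of Obp59a on replicate 3 lay far apart, at 0.99 and -6.58 for the first probe and 2.25 and -0.47 for the second, as deposited. Over the 34 pairs of member spots with both values, the median absolute difference was 0.193 log2 units, against 0.380 over all 21403 pairs. A difference over 1 log2 unit was found in 3 member pairs (8.82%), against 21.3% of all pairs. Of the 3, 2 were the Obp59a pairs on replicate 3, and the other was the second probe of Obp19c on replicate 4 of 7 d, at 1.89 and -2.13.

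**Figure D3:**
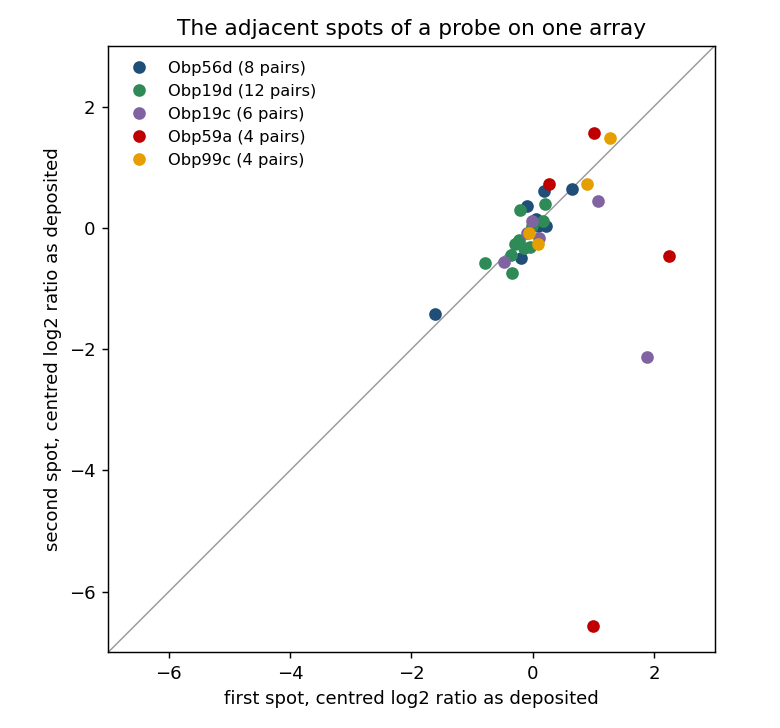
First against second adjacent spot of each member probe on each array where both had a value, as centred log2 ratios as deposited, with the line of equality. Most of the 34 pairs lie near the line, while 2 Obp59a pairs (0.99 with -6.58, and 2.25 with -0.47) and 1 Obp19c pair (1.89 with -2.13) lie far below it.

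Obp99c, on 3 arrays of 12 h and 1 of 7 d, stood at 1.38 on replicate 2 of 12 h, where 95.5% of probes on that array lay below it. On replicates 3 and 4 of 12 h it stood at -0.078 and 0.81 as deposited, or 0.078 and -0.81 turned. Its adjacent spots differed by at most 0.351 on any array, and on replicate 2 of 12 h both spots were high, at 1.28 and 1.47. The 12 h mean was 0.21 ± 1.10 (SD, n = 3 arrays) turned, with an interval from -1.18 to 1.61, and 0.70 ± 0.73 as deposited. The adjusted p was 0.960 turned and 0.710 as deposited in limma. Without replicate 2 the turned mean was -0.37, on the other side of 0. At 7 d it stood at -0.095 on replicate 2, the only array that measured it.

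**Figure D4:**
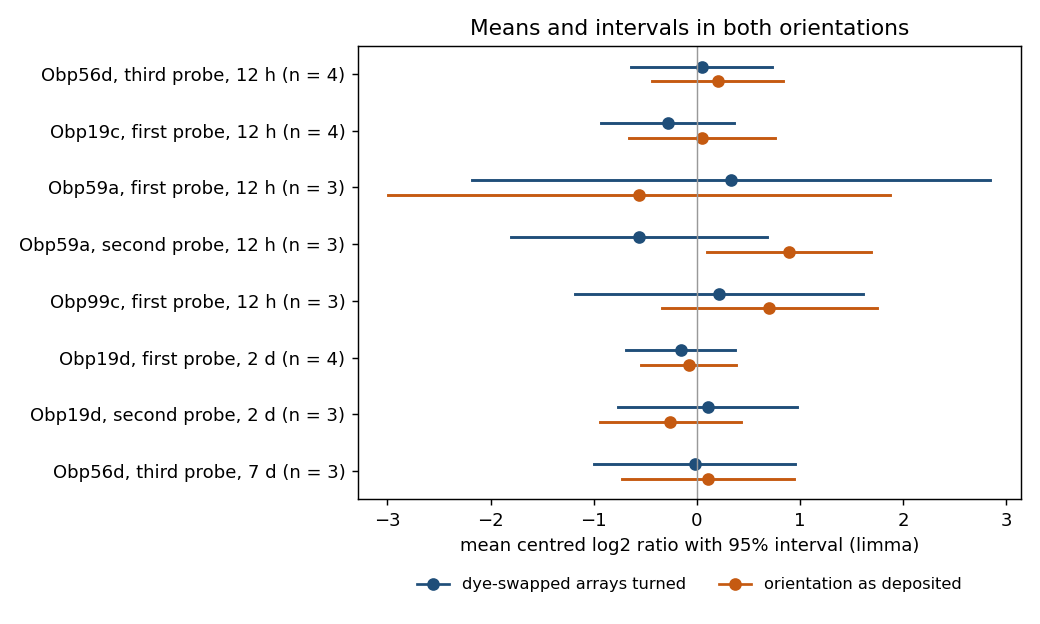
Mean centred log2 ratio with its 95% interval from limma for each member probe measured on at least 3 arrays of a time, with dye-swapped arrays turned (blue) and as deposited (orange). Intervals reach from -2.18 to 2.84 for the first probe of Obp59a and from -0.69 to 0.37 for the most-measured probe of Obp19d, both turned, and the second probe of Obp59a as deposited is the only one whose interval lies on 1 side of 0.

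Several members stood high together on replicate 4 of 12 h as deposited. Obp56d stood there at 0.65, Obp19c at 0.76, Obp99c at 0.81 and Obp59a at 1.45 and 1.29 by its probes, each above at least 83.7% of the probes of that array. Obp19d was the exception at -0.21. On replicate 3, which shares its dye orientation, the most-measured probes of Obp56d, Obp19c and Obp99c stood at -0.34, -0.091 and -0.078, all below 0. The Obp59a probes, measured on equally many arrays, lay on opposite sides of 0 there. The first stood at -2.79, from spots at 0.99 and -6.58, and the second at 0.89. The dye-swapped arrays of 12 h thus differed in sign for Obp56d, Obp19c and Obp99c. For Obp59a they differed by the first probe and not by the second. Of the 2 member probes on 4 arrays of 12 h, 0 kept 1 sign in either reading, beside 17.1% of probes turned and 16.6% as deposited. Of the 3 on 3 arrays of 12 h, 0 did turned and 1 did as deposited, beside 22.5% and 37.4% of probes.

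The other genes of odour reception were measured too thinly for most tests. Of 15 further odorant-binding protein genes on the array, 13 had a value somewhere and 1, Obp44a, reached 3 arrays of a time, with 0 called. The array also held 1 odorant receptor gene, 3 ionotropic receptor genes, 1 gustatory receptor gene and 3 genes of other carriers and enzymes, and 0 of these 8 reached 3 arrays. Over all genes, 69.3% had a value somewhere and 6.86% reached 3 arrays of a time. The gene lush, whose protein is needed to sense the male pheromone, stood at 0.42 and 0.12 as deposited on the dye-swapped arrays of 12 h and at 0.22 at 7 d. Obp56h stood at -1.64 on replicate 2 of 12 h, in Cy5, and at -1.86 as deposited or 1.86 turned on replicate 4. At 7 d it stood at -0.68 and -0.067 as deposited on the dye-swapped arrays. Obp99d, for which the RefSeq table lists Obp99c as an older name, is a separate gene by its Entrez identifier and stood at 1.07 and 1.19 as deposited on the dye-swapped arrays of 12 h, and at -0.14 and 1.05 on those of 7 d.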

How the data were processed

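Head RNA of drug-fed and control flies was compared on 12 2-colour cDNA arrays, 4 per time. The authors deposited log2 ratios of the dye channels. Per the series design text deposited with the data, slides were read on a GenePix 4000A with GenePix Pro 6.0, normalized by ratio in Acuity 4.0 and filtered on saturation, flags, spot uniformity and signal-to-noise. The genome build is not given in the sources used, and signal per spot is unknown. The number of arrays limits the precision.

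Adjacent spots of a probe were averaged, or the single measured spot kept. Each array was centred on its median, and both directions of the dye-swapped arrays were run, with the turned one as the main setting. For each time, probes on at least 3 of 4 arrays were tested with limma 3.58.1 in R 4.3.3 (intercept only, two-sided, Benjamini-Hochberg adjustment over all probes, threshold 0.05). Differences between times were contrasts over all 12 arrays. SDs are over arrays and intervals are 95% intervals. Where probes of a gene differed in coverage, the one on the most arrays stood for the gene in counts of genes. At equal coverage, as for Obp59a, it was the first probe. Symbols were updated through the RefSeq gene table (assembly Release 6 plus ISO1 MT), where all 5 members were found. The test was checked on simulated data with shifts larger than the member means, which does not show that it would find shifts of their size. The named genes are the 5 members, list genes on 3 arrays of a time, and the closest 2 genes per member with at least 6 shared arrays; lush, Obp56h and Obp99d were named after their values were seen. The members and lists were chosen with earlier results of these data known.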

Additional observations from a re-analysis of the deposited data

Results flagged for a closer look

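The most-measured probe of Obp19d at 2 d had turned values below 0 on all 4 arrays (-0.24, -0.23, -0.15 and -0.0073), while both arrays of 12 h (0.40 and 0.21) and both of 7 d (0.68 and 0.19) lay above 0. The difference of means was -0.46 for 2 d minus 12 h and 0.59 for 7 d minus 2 d. In a limma fit of all 12 arrays, of which 8 measured this probe, neither difference passed, with adjusted p of 0.999 and 0.892. As deposited, the 2 d arrays lay on both sides of 0, so the opposition over all arrays holds for the turned reading only. Among dye-swapped arrays alone, 2 d (0.15 and 0.0073 as deposited) lay on the other side of 0 from 12 h and 7 d, which the choice of reading cannot change. The second probe of Obp19d did not follow the first, with turned values of 0.043 and 0.54 on replicates 2 and 3 of 2 d and -0.30 on replicate 4 of 7 d. On replicate 1 of 2 d, at -0.27, it lay near the first. All 12 h and 7 d values come from dye-swapped arrays, and the part of the dye in the difference was tested only by the dye term, which left -0.38 and 0.51. No array stood apart by Dixon's test in the members measured on 4 arrays of a time (Obp56d and Obp19c at 12 h, Obp19d at 2 d), in either reading. With 4 arrays this test flags only a gap over 0.829 of the range, and Obp56d at 12 h turned reached 0.725. Members on 3 arrays were not tested in this way.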

How the results depend on the processing

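Of 118 recomputed values with a limma test, over 12 member results, 0 passed the threshold, 88 kept their direction and 30 changed it, 6 of them with 1 array left out. Part of the 88 could not change, because some settings return the same mean. These are a minimum of 2 arrays, turned fits of probes with 1 symbol only, and leaving out an array that lacked the probe. A dye term also left the mean of a time unchanged where each dye had 2 arrays. The 88 therefore overstate how stable the directions were. Replicates 1 and 2 alone gave 8 values with no test, of which 4 changed direction: -0.34 and 0.50 for the Obp59a probes, -0.12 for the second Obp19d probe and 0.12 for Obp56d at 7 d. Obp99c moved to 1.38 there. At each time 0 members were called in every setting run. Between times 17 of 25 settings tested no member, so their count of 0 says nothing, and 0 were called in the other 8. As deposited, Obp19c at 12 h turned to 0.050, the probes of Obp59a to -0.56 and 0.89, the second probe of Obp19d at 2 d to -0.26 and Obp56d at 7 d to 0.11, with the same means when only probes with 1 symbol were fitted. Obp19d as deposited turned to 0.22 for 2 d minus 12 h, -0.13 for 7 d minus 12 h and -0.35 for 7 d minus 2 d. Without centring, Obp19c turned to 0.22, the second probe of Obp59a to 0.14, the second probe of Obp19d to -0.084 and Obp19d 7 d minus 12 h to -0.59. Other values without centring were 0.55 for Obp56d at 12 h, -0.30 for Obp56d at 7 d, 0.92 for Obp99c, 1.03 for the first Obp59a probe, -0.26 for the first Obp19d probe, -1.19 for Obp19d 2 d minus 12 h and -0.85 for Obp56d 7 d minus 12 h. The second spot alone gave the first Obp59a probe 1.61. As deposited without centring, the Obp59a probes stood at -0.70 and 0.76 and the second Obp19d probe at -0.50. With the first spot only, Obp56d turned to -0.073 at 12 h and 0.069 at 7 d, and the second Obp19d probe to -0.034. A dye term gave Obp56d 0.014 at 7 d. Leaving out 1 array gave -0.41 to -0.13 for Obp19c, -0.070 to 0.28 for Obp56d at 12 h, -0.096 to 0.034 for Obp56d at 7 d, -0.90 to 1.22 and -1.09 to -0.20 for the Obp59a probes, -0.37 to 0.73 for Obp99c, and -0.21 to -0.13 and -0.12 to 0.29 for the Obp19d probes. The cause of these changes was not tested.

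Only replicates 1 and 2 share label numbers across the times, and 0 members were measured on enough of these arrays for the replicate block, which called 0 members and 0 of 721 probes in each contrast (5.69%, 6.80% and 5.13% at an unadjusted p under 0.05). Differences between these replicates correlated across probes at 0.00399, -0.0445 and 0.0826 (Pearson) between times, and the numbers were not taken as pairs. No centring would call 10 of 865 probes (1.16%) at 7 d, against 0 with centring, and 0 members.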
